A study of Mus musculus with 9 samples.

Results

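Adipocyte markers were followed in sheets of newborn mouse epidermis, array by array. The 8 genes asked for were Adipoq, Retn, Cfd, Plin1, Lep, Cidec, Car3 and Plin4, and a probe set was taken as a member when the platform annotation named 1 of them as its only gene. By this rule 6 of the 8 genes had 9 probe sets, among 18193 genes and 45037 probe sets in all. Car3 had 4 probe sets and Adipoq, Retn, Lep, Cidec and Plin4 had 1 each, while Cfd and Plin1 had no probe set under this rule and were not analysed here. Expression was read on 9 arrays of the Affymetrix Mouse Genome U430 2.0 type, each hybridised with RNA from the trunk epidermis of newborns killed at birth. The knockout group held 4 arrays from mice null for Alox12b, the gene of 12R-lipoxygenase, an enzyme of the epidermal lipid barrier. The wildtype group held 5 arrays, labelled with the strain 129S6, and both groups came from matings of heterozygous Alox12b knockout parents. All sheets had been lifted mechanically off the dermis after a bath in hot saline, per the labels' protocols.

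White adipocytes store triglyceride in a single large lipid droplet and secrete hormones into the blood. In mouse skin adipocytes lie below the dermis, and the epidermis itself holds none. Their droplet is coated by perilipins and enlarged by Cidec, and PPARγ, the product of Pparg, drives the genes of this programme together with C/EBP factors. The values show how far the RNA of each sheet held their transcripts. Fewer adipocytes and less RNA per adipocyte cannot be told apart in such bulk samples.

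Because PPARγ and C/EBP factors act on these genes, the 250 bases before the start of transcription were searched for 4 short motifs on both strands. The sequences came from RefSeq (GRCm38.p6), which gave 8 such windows for 7 of the 8 genes. Car3 was not in the table. Shown are 3 genes that varied together, Adipoq, Retn and Cidec, and Lep, which stayed dim on every array. They are written 5′ to 3′ on the gene's strand, and capitals mark the bases of a match.
Adipoq (chr16:23146286-23146535, plus strand): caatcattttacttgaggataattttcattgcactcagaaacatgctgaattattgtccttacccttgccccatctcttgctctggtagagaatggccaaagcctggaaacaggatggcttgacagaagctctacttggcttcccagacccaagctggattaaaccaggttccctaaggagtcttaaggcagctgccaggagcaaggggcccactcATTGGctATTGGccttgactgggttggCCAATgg
Retn (chr8:3655520-3655769, plus strand): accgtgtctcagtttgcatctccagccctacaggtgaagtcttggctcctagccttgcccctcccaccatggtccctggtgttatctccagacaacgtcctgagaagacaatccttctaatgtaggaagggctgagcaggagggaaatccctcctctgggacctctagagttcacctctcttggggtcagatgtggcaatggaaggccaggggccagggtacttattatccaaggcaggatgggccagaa
Cidec (chr6:113434765-113435014, minus strand): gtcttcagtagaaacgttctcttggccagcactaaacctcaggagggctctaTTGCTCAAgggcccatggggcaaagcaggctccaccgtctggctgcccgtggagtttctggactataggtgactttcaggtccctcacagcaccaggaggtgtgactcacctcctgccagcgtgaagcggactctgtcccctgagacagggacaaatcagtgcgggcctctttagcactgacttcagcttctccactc
Lep (chr6:29059971-29060220, plus strand): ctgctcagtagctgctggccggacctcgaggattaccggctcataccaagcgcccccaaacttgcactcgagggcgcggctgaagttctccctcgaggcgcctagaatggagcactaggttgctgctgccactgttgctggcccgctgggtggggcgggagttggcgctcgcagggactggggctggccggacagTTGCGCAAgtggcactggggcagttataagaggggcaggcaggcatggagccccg
The C/EBP motif TTGCNNAA was found in the windows of Lep, Plin1 and Cidec, and in 9.56% of all 32851 windows. For Cidec it was in the window shown and not in that of its other start. CCAAT was found in the windows of Adipoq and Plin4, 3 times in Adipoq, and in 33.8% of all windows. The nuclear receptor core AGGTCA, 1 arm of a PPAR site, and the TATA motif TATAAA were found in 0 of the 8 windows, against 14.0% and 12.4% of all windows. CCAAT and the C/EBP motif did not overlap in the windows shown. Such matches describe letters and not binding.

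The values are log2 expression as deposited, on which 1 unit is a 2-fold difference, and a level is compared only between arrays for the same probe set. Array medians ran from 3.14 to 3.31. The 95th percentile of 44 olfactory receptor probe sets, genes not used in skin, was taken on each array as a mark of dim signal and lay between 3.02 and 3.62. Epidermal markers were high on all arrays, with a list mean of 11.70 to 12.37 over 7 genes, led by Lor, the loricrin gene. Within this list Krt5 and Krt14 were lowest on wildtype array 5, at 7.47 and 7.36, against 8.41 to 9.76 and 8.58 to 9.65 elsewhere. Alox12b read 10.84 to 11.60 on the knockout and 10.56 to 11.32 on the wildtype arrays. The deleted part of Alox12b is not named in the labels, and this level is therefore no check of the genotypes. Xist, the RNA of the inactive X chromosome, read 9.99 to 10.20 in knockout, 10.95 on wildtype array 4 and 3.23 to 4.32 on the other wildtype arrays, while the Y-linked Eif2s3y read 2.00 to 2.43, 2.11 and 7.67 to 8.04. Genotype and sex therefore overlapped in all arrays but 1. The labels call the samples biological replicates without naming litters or batches.

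Adipoq encodes adiponectin, a hormone made almost exclusively by adipocytes. On probe set 1422651_at it read 4.27, 3.79, 3.01 and 2.42 on knockout arrays 1 to 4 and 2.83, 6.36, 9.46, 7.53 and 5.98 on wildtype arrays 1 to 5. Wildtype arrays 2 to 5 were above every knockout array, but wildtype array 1 lay inside the knockout range, so the groups overlapped. The highest wildtype array was 36.6-fold above the highest knockout array, and at least 71.8-fold above wildtype array 1, where Adipoq was below the dim mark and the mark was taken in its place. The group means were 3.37 ± 0.82 (SD, n = 4) and 6.43 ± 2.43 (SD, n = 5), a difference of -3.06 (95% interval -5.32 to -0.80) that did not pass after adjustment over all probe sets (limma adjusted p = 0.191).

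Retn encodes resistin, an adipocyte hormone of rodents. On 1449182_at it read 4.25, 4.61, 4.86 and 3.79 in knockout and 4.32, 6.11, 7.90, 6.71 and 5.66 in wildtype. The same 4 wildtype arrays were above every knockout array, in the same order as for Adipoq, and wildtype array 1 again lay among the knockout arrays. The means were 4.38 ± 0.47 (SD, n = 4) and 6.14 ± 1.32 (SD, n = 5), and the difference of -1.76 (95% interval -3.01 to -0.51) did not pass (limma adjusted p = 0.174). Retn was above the dim mark on all 9 arrays, whereas Adipoq was above it on 6, the exceptions being knockout arrays 3 and 4 and wildtype array 1.

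Lep, the gene of the satiety hormone leptin, did not share this pattern. On 1422582_at it read 2.76, 2.72, 2.79 and 3.04 in knockout and 2.81, 2.87, 2.93, 2.72 and 2.64 in wildtype. It was below the dim mark on all 9 arrays, including wildtype array 3, where Adipoq was highest. The difference of 0.03 had a 95% interval of -0.21 to 0.27 and a limma adjusted p of 0.914, and its sign changed with the scaling of the arrays, to -0.04 after quantile normalization and -0.01 after median centring. A level below the mark bounds what this probe set can show, and no statement on leptin expression follows from it.

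**Figure D1:**
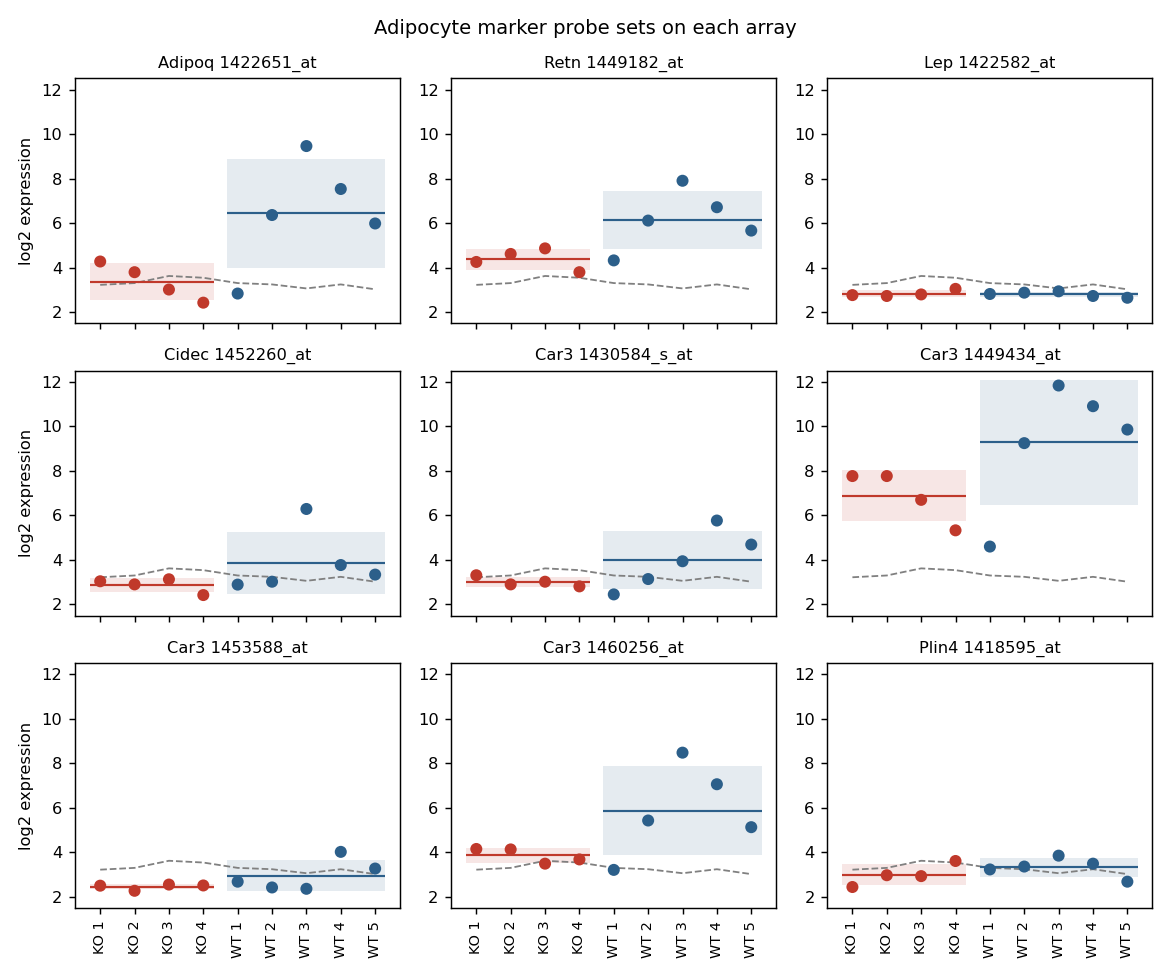
Log2 expression (y axis) of the 9 member probe sets on the 4 knockout arrays (KO, red) and 5 wildtype arrays (WT, blue). Lines and shading give the group mean and 1 SD, and the dashed line is the 95th percentile of 44 olfactory receptor probe sets on each array. Adipoq, Retn and the Car3 probe sets 1449434_at and 1460256_at are highest on wildtype array 3 and low on wildtype array 1, and Lep stays below the dashed line on all 9 arrays.

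Car3, the gene of carbonic anhydrase 3, is abundant in adipocytes and also in slow skeletal muscle. Its brightest probe set, 1449434_at, read 7.77, 7.77, 6.70 and 5.33 in knockout and 4.60, 9.25, 11.84, 10.91 and 9.86 in wildtype. Wildtype arrays 2 to 5 were again above all knockout arrays, while wildtype array 1 was below all of them, and the 5 wildtype arrays spanned 151-fold. The means were 6.89 ± 1.16 (SD, n = 4) and 9.29 ± 2.80 (SD, n = 5), with a difference of -2.40 (95% interval -5.06 to 0.26) and a limma adjusted p of 0.355.

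A second Car3 probe set, 1460256_at, read 4.15, 4.13, 3.49 and 3.68 in knockout and 3.21, 5.43, 8.48, 7.06 and 5.13 in wildtype. It followed the brightest one closely, with r = 0.92 over the 9 arrays, which share hybridisation and normalization. Its difference was -2.00 (95% interval -3.81 to -0.18) with a limma adjusted p of 0.269. The remaining Car3 probe sets, 1430584_s_at and 1453588_at, were dimmer and differed in their order, since both were highest on wildtype array 4, at 5.77 and 4.02, and read 3.94 and 2.36 on wildtype array 3. They correlated with the brightest probe set at r = 0.77 and r = 0.37 over 9 arrays, and their differences were -0.99 and -0.49 (limma adjusted p = 0.389 and 0.437). Wildtype array 4 was also the array with the highest skeletal muscle markers, with a mean of 6.33 over 8 genes against 3.80 to 5.38 on the other arrays. Of these genes only Myog did not peak there, at 2.84 against 2.74 to 3.52 elsewhere. The part of muscle in these Car3 values was not tested.

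Among the droplet genes, Cidec was seen above the dim mark only on wildtype arrays 3, 4 and 5. On 1452260_at it read 3.04, 2.90, 3.13 and 2.42 in knockout and 2.89, 3.02, 6.29, 3.77 and 3.34 in wildtype. Wildtype array 3 stood at least 6.35-fold above the knockout arrays, all 4 of which were below the mark, so that the highest of their marks was taken in their place. The means were 2.87 ± 0.32 (SD, n = 4) and 3.86 ± 1.40 (SD, n = 5), and the difference of -0.99 (95% interval -2.27 to 0.30) had a limma adjusted p of 0.424. Without wildtype array 3 it was -0.38.

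Plin4, a perilipin of small and nascent droplets, stayed close to the dim mark. On 1418595_at it read 2.44, 2.97, 2.93 and 3.61 in knockout and 3.23, 3.36, 3.85, 3.49 and 2.68 in wildtype. The groups overlapped over most of their range, and only wildtype array 3 was above every knockout array. The difference was -0.33 (95% interval -0.90 to 0.23) with a limma adjusted p of 0.536.

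**Figure D2:**
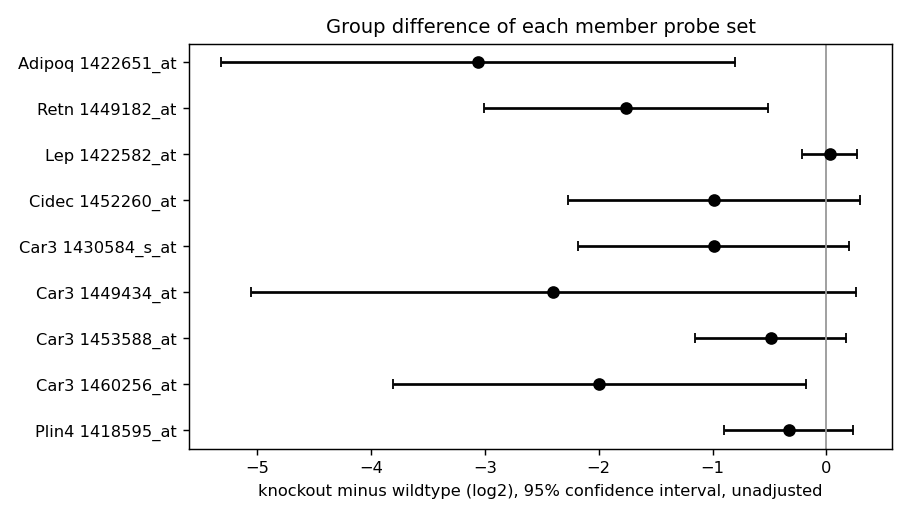
Knockout minus wildtype difference on the log2 scale (x axis) for each of the 9 member probe sets, with the 95% confidence interval of limma, not adjusted for multiple tests. The points lie between -3.06 for Adipoq and 0.03 for Lep, and the intervals of Adipoq, Retn and Car3 1460256_at lie below 0.

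The comparison asked whether the knockout and wildtype sheets differed in these transcripts. Of the 9 probe sets 0 passed a limma adjusted p of 0.05, and 3 had an unadjusted p under 0.05. Over all probe sets 1.11% passed the first and 16.3% the second. Taken by the brightest probe set, 0 of 6 genes passed, where 1.25% of all genes did and 0.737% were lower in knockout, and 2, Adipoq and Retn, had an unadjusted p under 0.05, where 18.6% of all genes did. For 0 of the 6 genes were the groups apart without overlap, whereas 5.14% of all genes were lower in knockout without overlap. The differences were negative for 5 of the 6 genes, with a median of -1.37, against 46.5% of all genes and a median of 0.02. A single array decided the only call that any of the leave-one-out fits gave. Without wildtype array 1 Adipoq differed by -3.96 with a limma adjusted p of 0.0470, in a range of 0.0470 to 0.372 over the 9 such fits. In the same fit Car3 differed by -3.57 and Retn by -2.22 (limma adjusted p = 0.0525 and 0.0656). The limma adjusted p stayed at 0.378 for Cidec, 0.573 for Plin4 and 0.913 for Lep. When only the female-pattern arrays were used, which sets the 4 knockout arrays against wildtype array 4, the difference was -4.16 for Adipoq, -2.33 for Retn and -4.02 for Car3. With 1 array the wildtype side has no spread of its own, so these are values with no test.

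The spread among wildtype arrays was itself large. Ranked by the SD over the 5 wildtype arrays, Car3 was number 2 and Adipoq number 4 of 18193 genes, with Cidec at 33 and Retn at 42. The median SD was 0.20 over all genes. Among the 4 knockout arrays the same genes ranked 119 for Car3, 383 for Adipoq, 2209 for Retn and 5936 for Cidec, and the median SD of all genes was 0.24. Plin4 ranked 2039 in wildtype and 2048 in knockout, and Lep 15203 and 14502. Ordered by the mean level of the 6 genes, the arrays ran from wildtype array 3 at 7.05, wildtype array 4 at 5.86, wildtype array 2 at 5.16 and wildtype array 5 at 5.03 to knockout arrays 2, 1 and 3 at 4.13, 4.09 and 3.90, then wildtype array 1 at 3.45 and knockout array 4 at 3.44. Each array was 1 sample, so neighbours in this order have no replicate spread of their own. The female-pattern wildtype array 4 stood above the knockout arrays, and of the male-pattern wildtype arrays 2, 3 and 5 stood above them and array 1 inside their range. Whether sex had a part in these levels was not tested.

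The members that varied did so together. Over the 9 arrays Adipoq correlated with Retn at r = 0.97, with Car3 at 0.95 and with Cidec at 0.84, and Retn with Car3 at 0.91. Cidec correlated with Retn at 0.86 and less with Car3, at 0.74. Lep and Plin4, both dim, were apart from these, at r = -0.07 and 0.41 with Adipoq, and correlated with each other at 0.7. These values describe 9 points that share hybridisation and normalization and hold both groups.

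Other genes of the adipocyte programme were counted in 7 lists of 71 genes, of which 68 had a probe set. Of these 1 rose in knockout and 1 fell, where 1.25% of all genes passed in either direction, and 16 of 68 had an unadjusted p under 0.05 (18.6% of all genes). Their median difference was -0.09, against 0.02 over all genes.

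The list of fatty acid uptake and triglyceride assembly had the lowest median of the 7. Of its 12 genes 0 passed, 11 had a negative difference and the median was -0.58. Cd36, a fatty acid transporter, read 3.42 to 4.83 in knockout and 3.93, 5.82, 7.60, 6.01 and 7.19 on wildtype arrays 1 to 5, a difference of -1.73 (limma adjusted p = 0.219). Lpl, the lipase that frees fatty acids from lipoproteins, read 5.17 to 7.72 in knockout and 5.08, 7.59, 10.56, 9.12 and 8.84 in wildtype, a difference of -1.69 (limma adjusted p = 0.385). Fabp4, the fatty acid binding protein of adipocytes, read 5.78 to 7.99 in knockout and 6.68, 8.43, 10.58, 9.70 and 9.29 in wildtype, a difference of -1.52 (limma adjusted p = 0.324). All 3 were highest on wildtype array 3 and low on wildtype array 1, as Adipoq was. On knockout array 4, where Adipoq was lowest, Cd36 read 4.55, Fabp4 read 7.93 and Lpl was at its knockout maximum of 7.72.

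Of 12 lipid droplet and lipolysis genes 0 passed, and the median difference was -0.08. Plin2, a perilipin of many cell types, read 5.96 in knockout against 6.92 in wildtype (limma adjusted p = 0.0984). Pde3b, the phosphodiesterase through which insulin restrains lipolysis, read 4.04 against 4.73 and reached 5.92 on wildtype array 3 (limma adjusted p = 0.425). Pnpla2, the first lipase of triglyceride breakdown, read 6.12 against 6.62 (limma adjusted p = 0.311).

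Among 12 adipokine and insulin response genes 1 fell and the list median was -0.41. Lgals12, a galectin of adipocyte lipid droplets, fell by 1.17 (limma adjusted p = 0.0361), with means of 3.56 ± 0.55 (SD, n = 4) in knockout and 4.72 ± 0.20 (SD, n = 5) in wildtype. Its wildtype values of 4.45 to 4.98 lay above its knockout values of 2.83 to 4.11 and varied little. Wildtype array 1, at 4.45, did not join the knockout arrays as it did for Adipoq. On knockout arrays 3 and 4 Lgals12 read 3.46 and 2.83, below the dim marks of 3.62 and 3.54. The size of its fall therefore rests partly on dim values. The call was lost without any 1 of knockout arrays 2, 3 and 4 and wildtype arrays 1, 2, 3 and 4, with quantile normalization, with median centring, with the Xist level as a covariate, and when all probe sets of each gene were averaged, under which Dpp4 passed in its place. The Xist level follows genotype on all arrays but wildtype array 4, and the fit with it left 18 calls among all probe sets, against 498. A call lost in that fit therefore says little about a single gene. Irs1, an adaptor of the insulin receptor, read 7.71 against 8.68 (limma adjusted p = 0.117). Adig, the adipogenin gene, read 3.58 against 4.30 with 5.77 on wildtype array 3 (limma adjusted p = 0.446).

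Of 8 transcription factors 1 rose and 0 fell. Cebpb, which keratinocytes also express at high level, rose by 0.65 (limma adjusted p = 0.0434), with means of 11.65 ± 0.13 (SD, n = 4) in knockout and 11.00 ± 0.22 (SD, n = 5) in wildtype. That call too was lost without any 1 array other than wildtype array 5, with median centring and with the Xist covariate, a fit that says little about single genes. Pparg read 2.50 to 2.68 in knockout and 2.45, 2.63, 4.55, 3.42 and 3.08 in wildtype, a difference of -0.65 (limma adjusted p = 0.384). It was above the dim mark only on wildtype arrays 3, 4 and 5, and followed Adipoq in being highest on wildtype arrays 3 and 4. Nr1h3, a liver X receptor, read 3.11 against 2.81 (limma adjusted p = 0.218) and was below the dim mark on every array. Of 8 genes of fatty acid synthesis 0 passed, with a median of 0.07. Scd1, a desaturase that sebocytes also use, read 7.61 against 8.75, while Me1 read 9.61 against 9.26 and Thrsp 4.44 against 4.12 (limma adjusted p = 0.172, 0.257 and 0.265).

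Of 10 brown fat genes 0 passed and the median difference was 0.05. Ucp1, the uncoupling protein that defines brown adipocytes, read 3.48 to 3.93 in knockout and 3.15 to 3.94 in wildtype, and 3.42 on wildtype array 3, where Adipoq was highest (limma adjusted p = 0.426). Cox8b read 4.05 against 4.66 and was highest on wildtype array 4, at 6.23, and Dio2 read 3.33 against 3.04 (limma adjusted p = 0.549 and 0.256). The list mean was also highest on wildtype array 4, at 3.79 against 3.02 to 3.42 elsewhere. Ucp1, Cidea and Cox7a1 peaked there too, at 3.94, 5.94 and 2.97, the last below the dim mark. Elovl3, Dio2, Ppargc1a, Prdm16, Otop1 and Fabp3 did not peak there. Of 6 preadipocyte genes 0 passed, with a median of 0.16. Cd34, a surface protein of progenitors and vessels, read 4.09 against 3.43, Dlk1 6.36 against 5.92 and Pi16 3.75 against 3.57 (limma adjusted p = 0.341, 0.748 and 0.758). All 3 were highest on knockout array 4, where Adipoq was lowest. The rest of the list was mixed on that array: Pdgfra was also highest there, at 4.73, while Dpp4 and Zfp423 were lowest there, at 7.63 and 2.08.

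**Figure D3:**
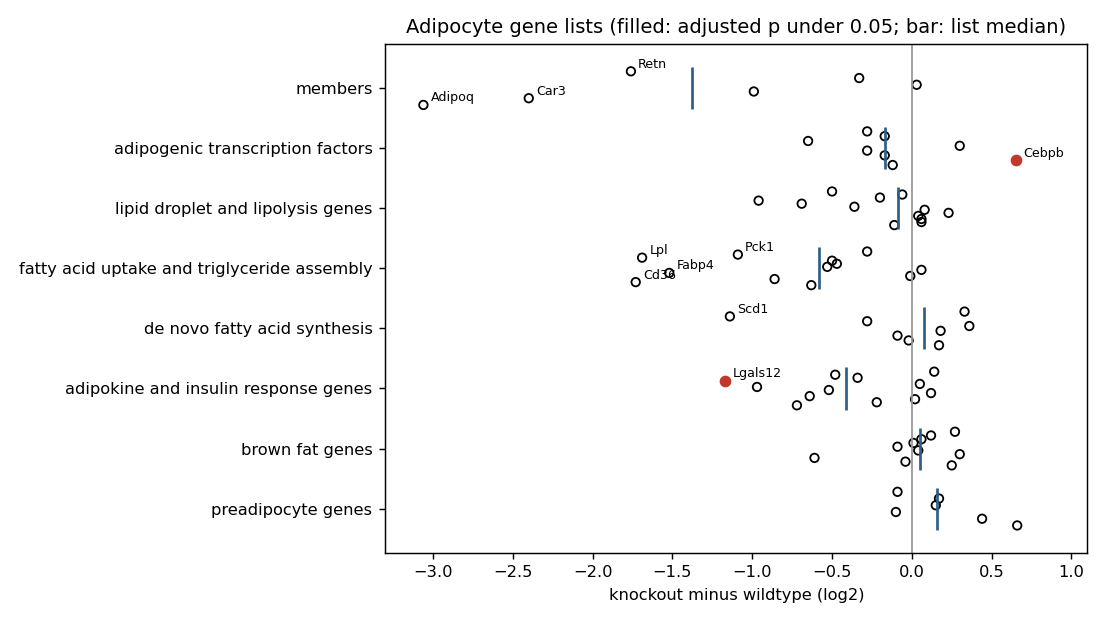
Knockout minus wildtype difference on the log2 scale (x axis) for each gene of the 8 adipocyte lists (y axis), by its brightest probe set. Filled points passed a limma adjusted p of 0.05, here Cebpb and Lgals12, and the vertical bars are list medians, from -1.37 for the members to 0.16 for preadipocyte genes.

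Genes whose levels ran most like the members were ranked by Pearson r with the mean of the 6 genes, over 9 arrays and among 5997 other genes whose levels spanned at least 1 on the log2 scale. The 15 nearest had r between 0.894 and 0.955, and 5 of them, Pde3b, Angptl4, Adig, Pnpla2 and Pparg, belonged to the adipocyte lists. These lists held 68 of all 18193 genes, and their share of the 5997 was not counted. The others were Gstz1, Chpt1, Adgrg2, Fam13a, Cdo1, Abca1, Cmbl, Aco1, Fah and Decr1. All 15 were highest on wildtype array 3 and 14 were next highest on wildtype array 4, an order that the choice by likeness to the member mean fixed. Chpt1, a phosphatidylcholine synthesis gene, reached 7.43 on wildtype array 3 against 3.06 to 5.10 elsewhere. Cdo1, the cysteine dioxygenase gene, reached 7.35 against 3.23 to 5.41. Abca1, a cholesterol exporter, reached 6.62 against 3.42 to 5.11. After the group means were removed the 15 had r between 0.83 and 0.971, and without wildtype array 3 it was 0.767 to 0.924. The 15 were chosen on these same arrays, so such values are no check of the choice. When the ranking itself was repeated, 13 of the 15 remained with the group means removed, 5 without wildtype array 3 and 2 with Spearman's rho.

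**Figure D4:**
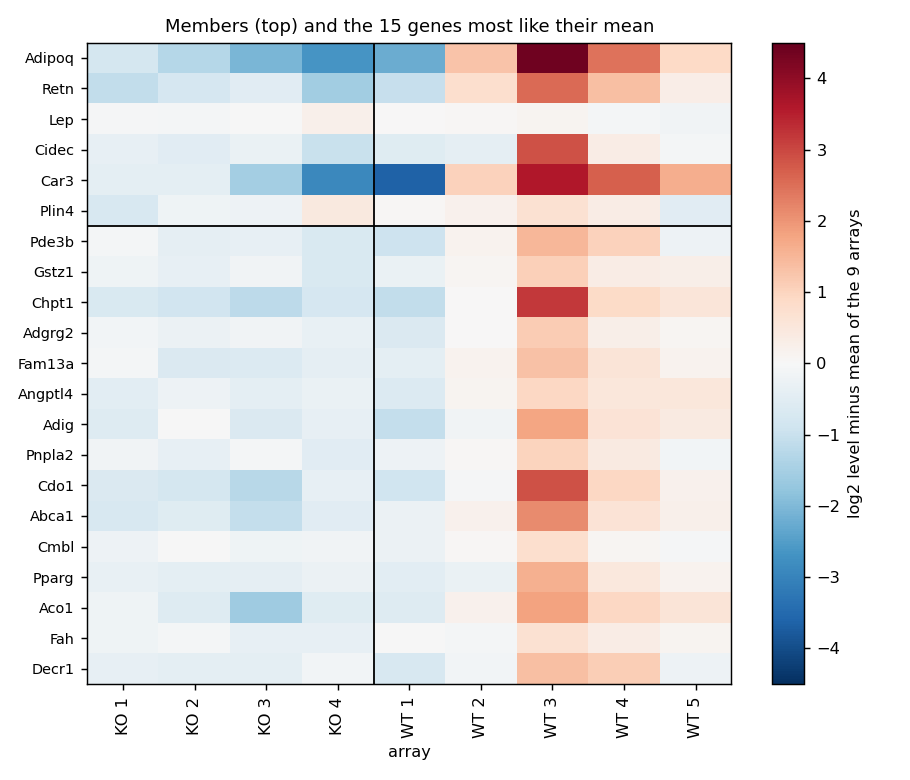
Log2 level minus the mean of the 9 arrays (colour) for the 6 members (above the line) and the 15 genes most like their mean, on each array (x axis, KO for knockout and WT for wildtype). Every row other than Lep is highest on wildtype array 3.

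Markers of other cell types below or within the epidermis were set beside the members on each array. The mean of the mast cell markers was highest on wildtype array 3, at 5.68 over 5 genes against 3.31 to 4.66 elsewhere, led by Cpa3 at 8.27. Of these genes 4 were highest there, while Kit was at its lowest there, at 2.64. Wildtype array 5, with a member mean of 5.03, had the lowest mast cell mean at 3.31.

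Fibroblast markers were highest on knockout array 4, with a mean of 8.91 over 8 genes against 5.41 to 7.66 elsewhere, and their brightest gene Col3a1 read 11.61 there. Fbln1 was the exception, at 6.34 on knockout array 4, as low as on any array. The same array had the highest smooth muscle mean, 6.29 over 5 genes against 3.00 to 3.44, with Acta2 at 9.19. It also had the lowest Adipoq of all arrays and the lowest mean of the members, 3.44. Wildtype array 5 had the lowest fibroblast mean, 5.41, and an Adipoq of 5.98, above every knockout array.

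The mean of the skeletal muscle markers, led by Mylpf, was highest on wildtype array 4 at 6.33 and next on knockout array 1 at 5.38. Endothelial means ran from 3.22 to 4.01 over 6 genes, highest on wildtype array 5, where Cldn5 read 6.28. Only Cldn5 was at its highest on that array, and Pecam1, Cdh5, Kdr, Emcn and Tek peaked on other arrays. Macrophage and Langerhans cell means ran from 3.92 on wildtype array 5 to 5.60 on wildtype array 4, where Csf1r read 8.71. Sebocyte means ran from 3.41 to 3.70 in knockout and 3.68 to 4.27 in wildtype over 3 genes. Of these only Far2 passed, falling from 6.45 to 4.64 (limma adjusted p = 0.0193), while Scd3 and Mc5r were below the dim mark on every array. Erythroid means ran from 2.93 to 3.72 over 4 genes, led by Alas2. The part of other cell types in the member levels was not tested beyond these values.

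The correlation of the list means with the mean of the members, over 9 arrays, was 0.94 for fatty acid uptake and triglyceride assembly, 0.92 for adipokine and insulin response genes, 0.89 for lipid droplet genes, 0.66 for adipogenic transcription factors and 0.63 for fatty acid synthesis. Of the 12 genes of each of the first 3 lists 5, 2 and 2 had an r over 0.8 of their own, with a median r of 0.78, 0.44 and 0.19. Over all 18193 genes, members included, 83 (0.456%) had an r over 0.8, and the median r was -0.04. For the other list means the correlation was 0.44 for mast cells, 0.37 for endothelium, 0.32 for skeletal muscle, 0.00 for fibroblasts, -0.39 for smooth muscle, 0.31 for brown fat genes and 0.02 for preadipocyte genes. Sebocyte markers gave 0.71 with 3 genes, whose own r was 0.71 for Far2, 0.2 for Mc5r and -0.22 for Scd3. Macrophage and Langerhans cell markers gave 0.28, epidermal markers 0.11 and erythroid markers -0.07.

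**Figure D5:**
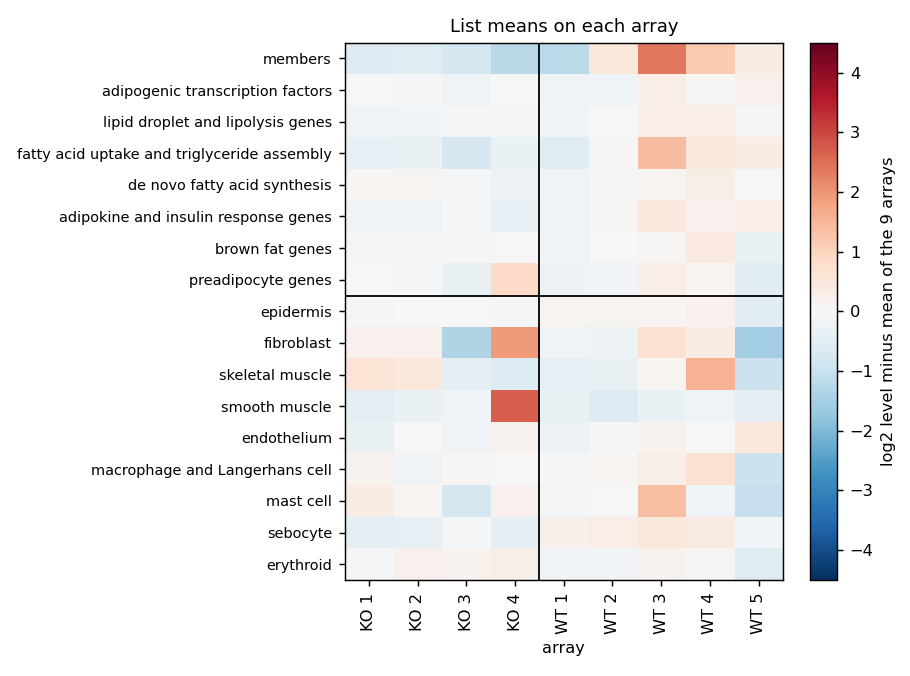
Mean log2 level of each gene list minus its mean over the 9 arrays (colour), by array (x axis, KO for knockout and WT for wildtype), with adipocyte lists above the horizontal line and other cell types below it. The members are highest on wildtype array 3, fibroblast and smooth muscle markers on knockout array 4, and skeletal muscle markers on wildtype array 4.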

How the data were processed

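Epidermal RNA of 9 newborn mice was labelled from its 3′ end and hybridised to 1 array each, per the labels' protocols. The authors deposited log2 expression values for 45037 probe sets, which ran from 1.43 to 14.46. Per the submitters' processing notes the tool was affy, with the steps of background correction, normalization and summary not given in the sources used here. Groups came from the sample titles. Between any pair of arrays of a group at most 124 values were identical. With arrays there is no read depth, and precision is limited by their number.

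The platform annotation named 1 gene for 34945 probe sets, several for 932, and did not list 9160. Of the first, 34741 symbols were matched by gene number to the GRCm38.p6 RefSeq table, whose coordinates were used for promoters only.

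All probe sets were fitted with limma 3.58.1 in R 4.3.3 (lmFit, eBayes, genotype as sole term, all values kept) with Benjamini-Hochberg adjustment over all 45037 and a threshold of 0.05. Each gene was represented by its brightest probe set, by the mean of the 9 arrays. Differences are knockout minus wildtype. The code was tested on simulated data. Named genes were the members, in each adipocyte list the 3 largest differences and any gene past the threshold, the 15 genes most like the members, and the brightest gene of each other cell type list. The likeness was planned over 8 members and used the 6 with a probe set. Genes named for their values on single arrays beyond this rule were chosen after the values were seen. The members and lists were chosen with earlier results of these data known. Alternatives were other probe set summaries, a filter, scalings, eBayes settings, array weights, an Xist covariate, the replicate block and each array left out. The fit on female-pattern arrays was added after the data were seen.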

Additional observations from a re-analysis of the deposited data

Results flagged for a closer look

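Cidec was flagged for a single array far from the rest of its group. On wildtype array 3 it read 6.29, while the next wildtype array read 3.77 and the lowest 2.89, so 0.741 of the group's range lay in this 1 gap. Of 18 combinations of probe set and group tested in this way 1 stood out, and chance flags about 1 in 20. Adipoq, Retn and Car3 were also highest on that array, without such a gap.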

How the results depend on the processing

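The number of member genes past the threshold was 0 in all 11 alternatives other than leaving out an array. Of these, the fit on female-pattern arrays and the fit with the Xist covariate could say little. In the 9 of the 11 that hold probe sets, 0 of the member probe sets passed. Leaving out each array in turn gave 0 to 1 for both counts. The median difference of the members ran from -2.08 with the filter on low values, which keeps 4 genes, to -1.04 with array weights, and from -1.72 without wildtype array 1 to -0.85 without wildtype array 3. Lep changed sign, to -0.04 with quantile normalization, -0.01 with median centring, -0.07 with array weights, -0.01 with the replicate block and, over the fits without 1 array each, to between -0.04 and 0.07. Median centring and quantile normalization changed no other sign. Of adipocyte pathway genes 2 passed in the fit reported, 1 with quantile normalization, 0 with median centring, 4 with array weights, 0 with the Xist covariate and 0 to 3 when arrays were left out. The cause was not tested. The replicate block takes wildtype array 5 out of the comparison. It gave 2 pathway genes, Irs1 and Plin2, in place of Cebpb and Lgals12. Same-numbered arrays deviated together at r between -0.213 and 0.179. The labels do not say whether the numbers pair the samples, and such weak correlations cannot decide it. Of the 15 genes most like the members 9 remained when members were scaled, 2 with Spearman's rho and 5 without wildtype replicate 3. With the array median as the mark of dim signal 46 of 81 values lay above it, against 44 with the olfactory receptor mark. The whole table gave 498 calls in the fit reported, 2511 with array weights, 18 with the Xist covariate and 142 to 626 when arrays were left out. On female-pattern arrays only, the wildtype side is 1 array assumed to vary like the knockout arrays, and 1 of 45037 probe sets passed, so the 0 member genes and 0 pathway genes past the threshold there say nothing about these genes. Dim probe sets such as Lep and Plin4 limit what can be read from their differences.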
